A study of Homo sapiens with 10 samples.

Results

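The Krüppel-like factors (KLFs) measured here were KLF2, KLF3, KLF4, KLF5, KLF6, KLF7, KLF8, KLF9, KLF10 and KLF13, which are 10 of the 58735 genes in the count table and were picked by gene name. RNA came from A253, an established human cell line grown from a salivary gland squamous carcinoma. All 6 libraries were from cells that had received a guide RNA and Cas9 by lentivirus and were grown in DMEM with serum. The control (sgRNA tomato) carried a guide against dTomato. The clones Cl1 and Cl10 each carried a heterozygous deletion of exon 2 of DUSP1, the phosphatase that removes the activating phosphates of MAP kinases. The paper reports no DUSP1 protein in either clone and chose them for that. It proposes that indels in the remaining allele could be the reason. There were 2 libraries in each of the 3 groups, and no drug or time course was part of the design. Each of Cl1 and Cl10 is a single-cell clone, so the effect of the deletion and a difference between clones cannot be told apart. Nothing in the labels says that the 2 libraries of a group came from separate cultures, so p-values measure only the spread between these libraries.

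KLFs are zinc finger transcription factors that bind GC-rich and CACCC sequences through fingers at the C terminus, and they differ in the cofactors bound by the rest of the protein. KLF2, KLF4, KLF5, KLF6 and KLF7 are mainly activators that recruit acetyltransferases, KLF3 and KLF8 recruit the corepressor CtBP, and KLF9, KLF10 and KLF13 bind the corepressor SIN3. In stratified epithelium KLF5 is a factor of proliferating basal cells and KLF4 one of differentiating cells, while several other members respond quickly to serum, growth factors or hormones.

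Library totals ran from 47016495 to 70986593 counts. Libraries of a group differed by more than counting noise, with a chi-square p under 0.05 for 58.5% of 15278 genes between the control libraries, for 47.3% of 15213 between those of Cl1 and for 23.6% of 14925 between those of Cl10. DUSP1, the edited gene, had 744.4 and 635.4 normalised counts (TMM-scaled to the mean library total) in the control, 304.0 and 353.7 in Cl1 and 495.2 and 415.2 in Cl10. It was lower in all 4 clone libraries, with a log2 fold change of -1.07 in Cl1 (edgeR's quasi-likelihood test, adjusted p = 0.000292) and -0.59 in Cl10 (adjusted p = 0.0113). The Cl10 call was lost without Cl10 replicate 2 (-0.48, adjusted p = 0.0794), in a range from -0.72 to -0.48 over 12 other settings. All 12 basal squamous markers reached 10 counts in every library, with KRT5 or KRT14 the most abundant. They summed to between 779806 and 795319 normalised counts in the control, 971172 and 978635 in Cl1, and 865818 and 892002 in Cl10. The leukocyte list summed to between 488.9 and 543.0 in the control, 811.7 to 988.7 in Cl1 and 753.8 to 842.9 in Cl10, with CD14 the highest and CD3D at 0 throughout. The salivary acinar and myoepithelial list summed to between 198.6 and 296.1, and 4 of its 14 genes, AMY1B, AMY1C, HTN1 and HTN3, were at 0 in every library. The endothelial list, with VWF the highest and KDR at 0 throughout, summed to between 182.8 and 274.1 in the control, 369.7 and 497.8 in Cl1, and 232.1 and 280.0 in Cl10. The fibroblast list, with LUM at 0 throughout, summed to between 2578 and 2915 in the control, 2654 and 2830 in Cl1, and 1750 and 1846 in Cl10. Every library came from cultures of the A253 line, so these sums describe RNA of A253 cells and not of a tissue mixture. Their part in the results below was not tested. In bulk RNA, fewer A253 cells that express a gene and less of its RNA per cell cannot be told apart.

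Relative to gene length, KLF5 was the most abundant of the 10 genes in every library. Its level, in TMM-scaled FPKM over merged exons, was 90.7 ± 8.79 (SD, n = 2) in the control, 54.0 ± 0.897 in Cl1 and 73.4 ± 0.0842 in Cl10. KLF5 made up 52.4% and 53.4% of the summed levels of the 10 genes in the control libraries, 37.5% and 37.6% in Cl1, and 44.5% and 44.2% in Cl10. The share of KLF5 among these 10 genes was thus highest in the control and lowest in Cl1, with no overlap between groups.

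In the control, KLF5 was followed by KLF4 at 19.3 ± 1.57, KLF13 at 16.1 ± 4.41 and KLF10 at 15.6 ± 0.688 (FPKM, SD, n = 2), and these neighbours overlapped in their libraries. KLF3 (9.94) and KLF6 (9.33) also overlapped, and exchanged places when the length of the canonical transcript was used instead. Below them came KLF7 at 5.62, KLF9 at 3.93, KLF2 at 1.12 and KLF8 at 0.03. KLF8 was nearly silent in all groups, with 9 to 24 raw counts per library. In both clones KLF10 stood second of the 10 genes, at 23.4 in Cl1 and 25.7 in Cl10. It was ahead of KLF13 (19 and 17.6) and KLF4 (17.5 and 17). KLF16, outside the 10 genes, was at 27.5 ± 0.117 in the control, 24 ± 2.89 in Cl1 and 29.8 ± 1.8 in Cl10. Its mean was above that of KLF10 in each group. KLF9 was at 1.93 in Cl1, where its libraries overlapped with those of KLF2 (1.79), and at 0.576 in Cl10, where it lay below KLF2 (1.41).

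**Figure D1:**
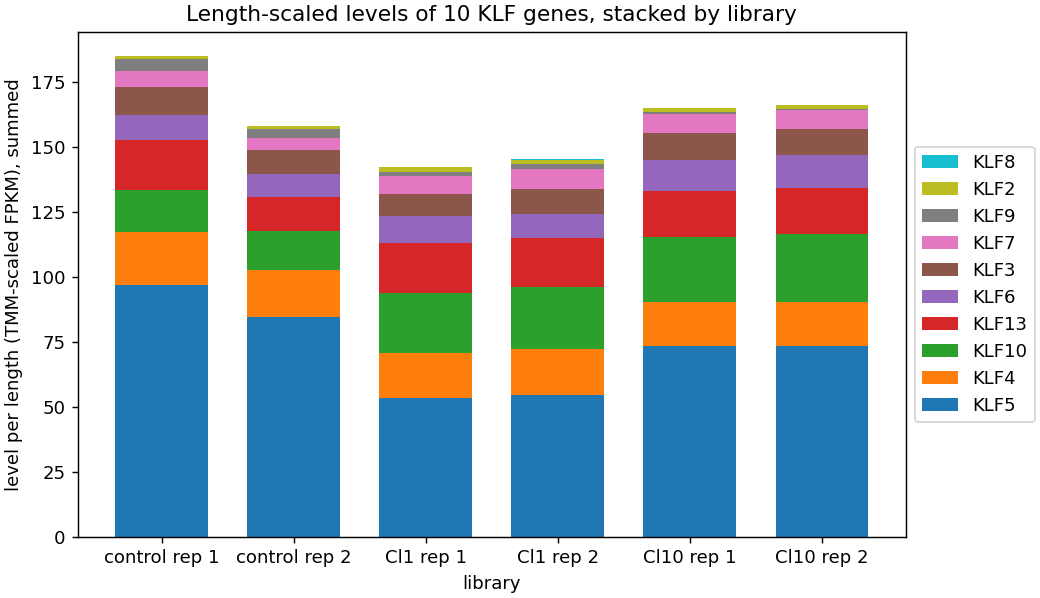
Stacked bars give the level per gene length (TMM-scaled FPKM) of the 10 KLF genes in each of the 6 libraries, control, Cl1 and Cl10, with 1 colour per gene. The KLF5 segment at the base is tallest in the control and shortest in Cl1, and the KLF10 segment is taller in the 4 clone libraries than in the 2 control libraries.

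Promoter sequence is shown for KLF9 and KLF5, the members that passed the test as lower in both clones. These are the 250 bases before the RefSeq start site in GRCh38.p14, 5′ to 3′ on the strand of the gene, with capitals for a GC box (GGGCGG or its complement CCGCCC) or a CACCC box (CACCC or its complement GGGTG). The KLF9 window is chr9:70414658-70414907 on the minus strand, and the KLF5 window is chr13:73058755-73059004 on the plus strand.
KLF9: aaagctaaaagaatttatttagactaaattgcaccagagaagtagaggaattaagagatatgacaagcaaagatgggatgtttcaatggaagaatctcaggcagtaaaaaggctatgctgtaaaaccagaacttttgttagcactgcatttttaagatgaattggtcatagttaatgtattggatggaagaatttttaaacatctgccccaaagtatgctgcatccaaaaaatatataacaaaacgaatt
KLF5: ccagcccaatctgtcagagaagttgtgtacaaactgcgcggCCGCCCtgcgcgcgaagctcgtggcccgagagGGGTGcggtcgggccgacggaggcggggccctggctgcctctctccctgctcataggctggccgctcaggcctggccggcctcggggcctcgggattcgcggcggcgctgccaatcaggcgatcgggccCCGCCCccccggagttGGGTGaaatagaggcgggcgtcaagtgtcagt
The KLF9 window was AT-rich, with 32.4% G and C and neither motif, whereas the KLF5 window held 70.8% G and C, 2 GC boxes and 2 CACCC boxes. RefSeq promoters were available for 8 of the 10 genes. A GC box lay in 6 of these 8 and a CACCC box in 4, against 42.6% and 54.7% of all 35116 promoter windows of that length. The other 6 windows ranged from 58% G and C in KLF7 to 80% in KLF2. The AP-1 motif TGANTCA, present in 6.57% of all windows, and the cyclic AMP response element TGACGTCA, present in 1.65%, were in none of the 8. A match describes the letters in the window only.

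To ask which KLF genes differ between DUSP1-deleted clones and control cells, each clone was tested against the same 2 control libraries in a fit over all genes. All 10 members passed the filter on low counts. In Cl1, KLF2 and KLF10 rose and KLF5 and KLF9 fell, which is 4 of the 10 members past an adjusted p of 0.05, where 25.1% of the 20153 genes tested passed, 12.4% higher and 12.8% lower. In Cl10, KLF6 and KLF10 rose and KLF5 and KLF9 fell, again 4 of 10, where 42.5% of 19875 genes passed, 20.6% higher and 21.8% lower. KLF4, KLF7, KLF3, KLF8 and KLF13 did not pass in either clone. A share of 4 in 10 was near that of all genes in Cl10 and 1 or 2 genes above it in Cl1. The median of the members was -0.02 on the log2 scale in Cl1 and 0.09 in Cl10, against -0.01 for all genes tested in each. With a log2 fold change beyond 1 in either direction required as well, KLF9 alone remained in each clone, where the share of all genes was 7.54% in Cl1 and 13.4% in Cl10. The control and clone libraries did not overlap for 7 of 10 members in Cl1 and for 7 in Cl10, beside 63.6% and 73.8% of all genes.

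**Figure D2:**
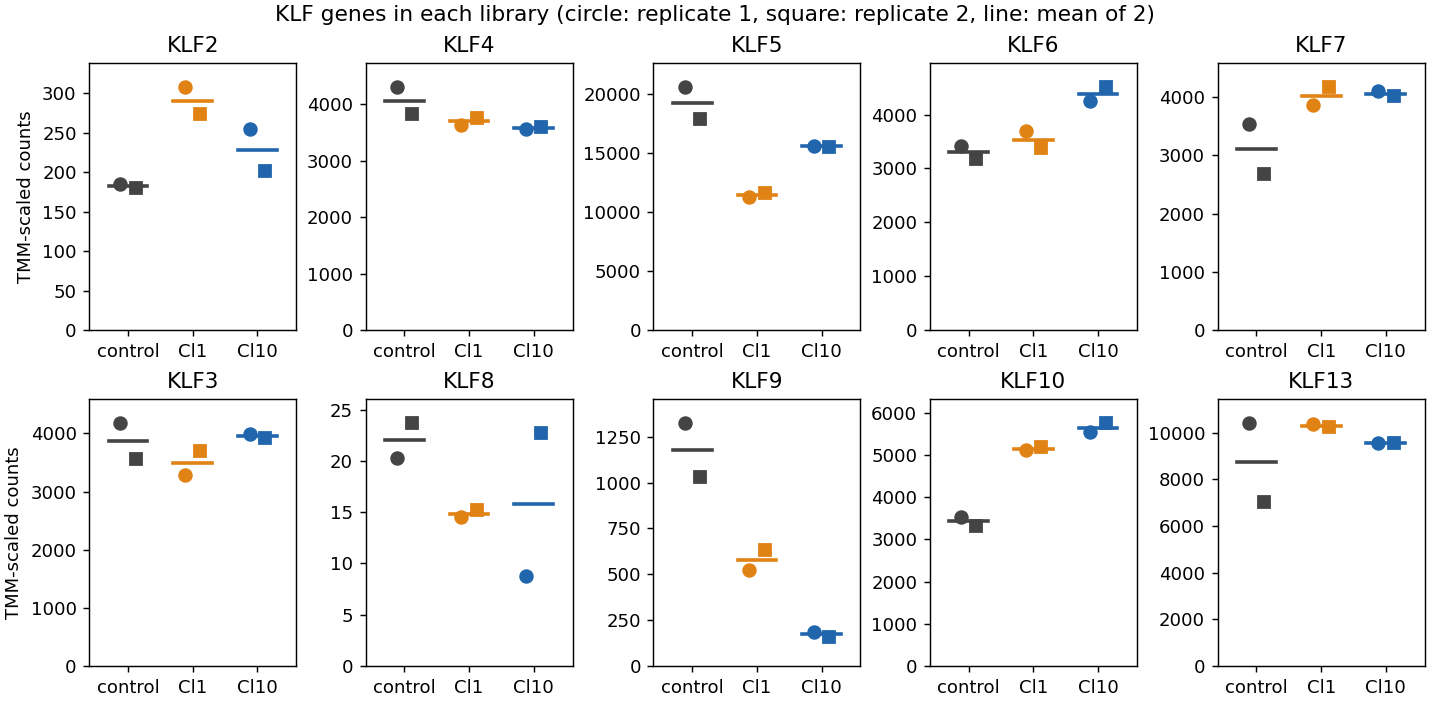
Normalised counts (TMM-scaled) of each KLF gene on axes that start at 0, 1 panel per gene, for control, Cl1 and Cl10; a circle is replicate 1, a square is replicate 2 and the line is the mean of the 2 libraries. KLF9 steps down from the control to Cl1 and again to Cl10, KLF10 is higher in all 4 clone libraries, and the 2 control libraries of KLF13 and KLF7 lie far apart.

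KLF9 (ENSG00000119138, chr9:70384604-70414657, minus strand) showed the largest change of the 10 genes. It encodes a SIN3-binding repressor that is induced by glucocorticoid and thyroid hormones. Raw counts were 1566 and 958 in the control, 614 and 541 in Cl1, and 188 and 134 in Cl10. After normalisation the control libraries had 1325 and 1030.0 counts, those of Cl1 524.2 and 633.6, and those of Cl10 184.7 and 160.3. The 3 groups did not overlap, with the control highest and Cl10 lowest. KLF9 fell 2.04-fold in Cl1 (log2 fold change -1.03, SE 0.151, edgeR's quasi-likelihood test, adjusted p = 0.000444) and 6.79-fold in Cl10 (-2.76, SE 0.16, adjusted p = 7.3e-05). The difference between the control libraries was smaller than the difference of either clone from them. Over 12 other settings the log2 fold change stayed between -1.19 and -0.84 in Cl1 (adjusted p at most 0.00216) and between -2.93 and -2.57 in Cl10 (at most 0.000121). Over the 50 nearest tested genes on chromosome 9 the median change on the log2 scale was -0.05 in Cl1 and 0.07 in Cl10.

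KLF10 (ENSG00000155090, chromosome 8, minus strand), also named TIEG1, is a SIN3-binding repressor and an early response gene of TGF-beta. Normalised counts were 3539 and 3324 in the control, 5105 and 5184 in Cl1, and 5539 and 5757 in Cl10. All 4 clone libraries lay above both control libraries. KLF10 rose 1.5-fold in Cl1 (log2 fold change 0.59, SE 0.109, edgeR's quasi-likelihood test, adjusted p = 0.00205) and 1.65-fold in Cl10 (0.72, SE 0.082, adjusted p = 0.000701). Both calls held in all 12 other settings, with log2 fold changes of 0.52 to 0.63 in Cl1 and 0.67 to 0.76 in Cl10, and adjusted p at most 0.0283 and 0.00489. KLF9 and KLF10 bind the same corepressor and moved in opposite directions in each clone.

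KLF13 (ENSG00000169926, chr15:31326835-31435665, plus strand), the last SIN3-binding member, had 10418 and 7037 normalised counts in the control, 10381 and 10226 in Cl1, and 9566 and 9544 in Cl10. The clone libraries lay between the 2 control libraries, which differed from each other more than from any clone library. The log2 fold change was 0.24 in Cl1 (SE 0.16, edgeR's quasi-likelihood test, adjusted p = 0.299) and 0.14 in Cl10 (SE 0.169, adjusted p = 0.554). It rested on which control library was used. Without control replicate 1 it was 0.55 in Cl1 and 0.44 in Cl10, both past the threshold (adjusted p = 2.38e-05 and 1.61e-19), and without control replicate 2 it was -0.01 (adjusted p = 0.956) and -0.13 (adjusted p = 0.0107).

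KLF5 (ENSG00000102554, chr13:73054976-73077541, plus strand), an activator of proliferation genes in basal epithelium, led the activator class. Normalised counts were 20527 and 17894 in the control, 11308 and 11577 in Cl1, and 15556 and 15531 in Cl10. Again the 3 groups did not overlap, but here Cl1 was lowest. KLF5 fell 1.68-fold in Cl1 (log2 fold change -0.75, SE 0.125, edgeR's quasi-likelihood test, adjusted p = 0.00108) and 1.23-fold in Cl10 (-0.30, SE 0.0957, adjusted p = 0.0406). The Cl1 call held in all 12 other settings, with log2 fold changes between -0.84 and -0.64 and adjusted p at most 0.0253. The Cl10 call was lost in 3 of 12 other settings, among them without Cl10 replicate 1 and without Cl10 replicate 2, where the value stayed at -0.30 (adjusted p = 0.345 in each), in a range from -0.40 to -0.21 over all settings.

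KLF4 (ENSG00000136826, chr9:107484852-107490482, minus strand), known for its part in epithelial barrier formation and as a reprogramming factor, had 4298 and 3830 normalised counts in the control, 3642 and 3754 in Cl1, and 3555 and 3606 in Cl10. All 4 clone libraries were below both control libraries, each by less than the control libraries differed from each other when set against the lower of them. The test was not passed in Cl1 (log2 fold change -0.13, SE 0.112, edgeR's quasi-likelihood test, adjusted p = 0.415) or in Cl10 (-0.18, SE 0.0883, adjusted p = 0.145). In Cl10 it was passed in 2 other settings, at -0.27 without control replicate 2 (adjusted p = 4.25e-07) and at -0.31 when the median of the neighbouring genes was subtracted (adjusted p = 0.0283). The ratio of KLF4 to KLF5 levels per length was 0.21 and 0.215 in the control, 0.324 and 0.326 in Cl1, and 0.23 and 0.233 in Cl10.

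KLF2 (ENSG00000127528, chr19:16324826-16328685, plus strand), a target of ERK5 and MEF2 signalling best known in endothelium and T cells, was low. Normalised counts were 185.3 and 179.6 in the control, 307.4 and 274.1 in Cl1, and 254.5 and 202.2 in Cl10. Both clones lay above the control, Cl1 by more. The endothelial marker sum, given above, was also highest in Cl1. VWF was its highest gene, with 246.2 and 151.6 normalised counts in the control and 320.2 and 443.9 in Cl1. In Cl1 PECAM1 had no counts and TEK had 14.5 and 24.6. These genes were read in A253 cultures, and their part in the KLF2 result was not tested. KLF2 rose 1.6-fold in Cl1 (log2 fold change 0.68, SE 0.165, edgeR's quasi-likelihood test, adjusted p = 0.0103). The Cl1 call was lost without Cl1 replicate 1 (0.59, adjusted p = 0.0888), and the log2 fold change ranged from 0.56 to 0.76 over 12 other settings with adjusted p down to 0.003. In Cl10 the value was 0.33 (SE 0.164, adjusted p = 0.145) and did not pass in any setting.

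KLF6 (ENSG00000067082, chr10:3775996-3785281, minus strand), a widely expressed activator induced by injury and serum, had 3423 and 3173 normalised counts in the control, 3691 and 3372 in Cl1, and 4245 and 4503 in Cl10. Cl1 overlapped with the control and Cl10 lay above both. KLF6 rose 1.33-fold in Cl10 (log2 fold change 0.41, SE 0.085, edgeR's quasi-likelihood test, adjusted p = 0.00805). The Cl10 call was lost with 1 library of that clone, at 0.46 without Cl10 replicate 1 (adjusted p = 0.0646) and 0.37 without Cl10 replicate 2 (adjusted p = 0.151), in a range from 0.35 to 0.47. In Cl1 the value was 0.10 (SE 0.111, adjusted p = 0.548).

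KLF7 (ENSG00000118263, chr2:207074137-207173856, minus strand), an activator studied mainly in neurons and fat cells, had 3539 and 2685 normalised counts in the control, 3860 and 4160 in Cl1, and 4095 and 4007 in Cl10. All clone libraries were above the control libraries, which were far apart. The log2 fold change was 0.37 in Cl1 (SE 0.134, edgeR's quasi-likelihood test, adjusted p = 0.0632) and 0.38 in Cl10 (SE 0.131, adjusted p = 0.0503), both short of the threshold. It was passed in 5 of 12 other settings in Cl1 and in 8 of 12 in Cl10. Over these settings the value ran from 0.18 to 0.58 in Cl1 and from 0.19 to 0.59 in Cl10, with the extremes set by which control library was left out. KLF7 overlaps the antisense gene MYOSLID, which had at most 317 raw counts in a library, and whether the counting used strand is not given in the sources used here. MYOSLID rose in Cl10 (log2 fold change 1.49, adjusted p = 0.000831) and had -0.29 in Cl1 (adjusted p = 0.401).

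Neither CtBP-binding member passed the test against the control. KLF3 (ENSG00000109787, chr4:38664197-38701517, plus strand), a repressor known from erythroid and fat cells, had 4181 and 3563 normalised counts in the control, 3286 and 3702 in Cl1, and 3984 and 3928 in Cl10. The groups overlapped, and the log2 fold changes were -0.15 in Cl1 (SE 0.12, edgeR's quasi-likelihood test, adjusted p = 0.409) and 0.04 in Cl10 (SE 0.0978, adjusted p = 0.796). In Cl10 the sign of KLF3 depended on the control library, with 0.15 without control replicate 1 (adjusted p = 0.00953) and -0.08 without control replicate 2 (adjusted p = 0.163). KLF8 (ENSG00000102349, chrX:56232356-56291531, plus strand), linked to cell motility, had 24 and 22 raw counts in the control, 17 and 13 in Cl1, and 9 and 19 in Cl10. Its log2 fold changes of -0.55 in Cl1 (SE 0.418, edgeR's quasi-likelihood test, adjusted p = 0.363) and -0.50 in Cl10 (SE 0.495, adjusted p = 0.445) did not pass, and with counts this low the errors were the largest of the 10 members.

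**Figure D3:**
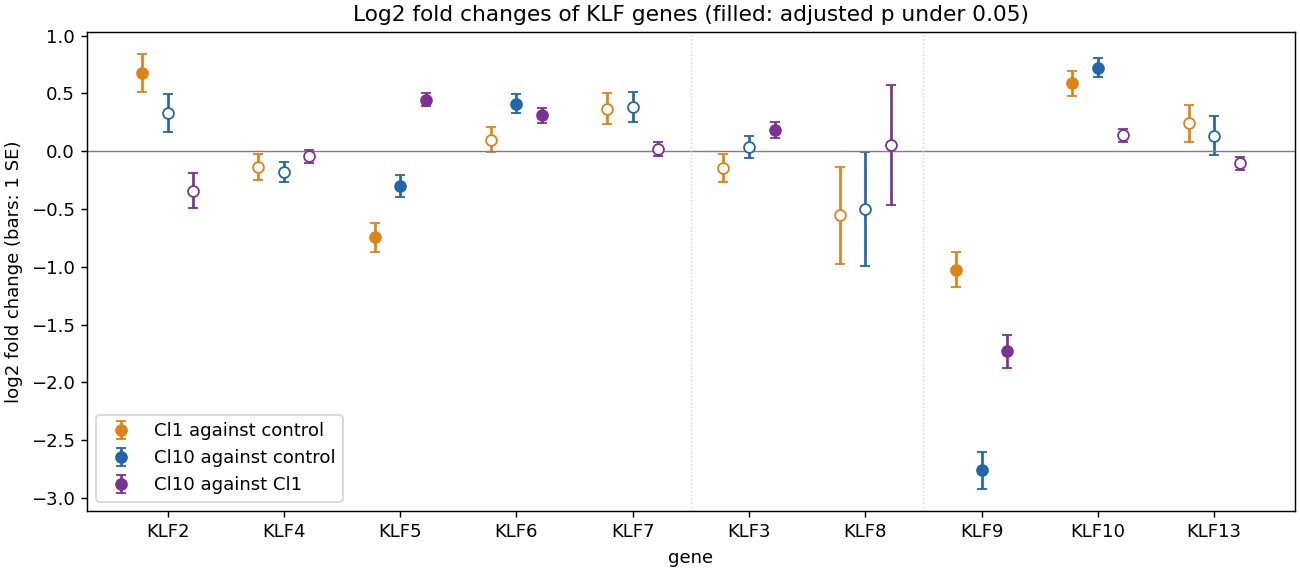
Log2 fold changes with bars of 1 SE for the 10 KLF genes in Cl1 against control, Cl10 against control and Cl10 against Cl1; filled points passed an adjusted p of 0.05. KLF9 lies below the other members in all 3 comparisons, KLF10 is filled above 0 for both clones, and KLF5 is below 0 for both clones but above 0 between them.

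The clones were then compared with each other, a comparison that uses no control library. KLF5, KLF6 and KLF3 were higher in Cl10 than in Cl1 and KLF9 was lower, which is 4 of 10 members past an adjusted p of 0.05, where 49% of 19818 genes passed, 24.9% higher and 24.1% lower. The libraries of the 2 clones did not overlap for 8 of 10 members, beside 74.8% of all genes. Only KLF9 exceeded a log2 fold change of 1 in either direction, as did 10.8% of all genes, and the members' median was 0.04 against -0.00 for all genes. KLF9 was 3.32-fold lower in Cl10 (log2 fold change -1.73, SE 0.139, edgeR's quasi-likelihood test, adjusted p = 7.59e-07). Conversely KLF5 was 1.36-fold higher in Cl10 (0.45, SE 0.0582, adjusted p = 4.41e-05), and KLF6 was 1.24-fold higher (0.31, SE 0.0642, adjusted p = 0.00149). These calls held in all 12 other settings. KLF3 was 1.14-fold higher (0.18, SE 0.0662, adjusted p = 0.0348), a call lost in 6 of 12 settings, among them without Cl1 replicate 1 (0.10, adjusted p = 0.11), without Cl10 replicate 1 (0.18, adjusted p = 0.185), without Cl10 replicate 2 (0.20, adjusted p = 0.14) and in DESeq2 (0.19, adjusted p = 0.0634). KLF10 did not pass (0.14, SE 0.0575, adjusted p = 0.063), and neither did KLF2 (-0.34, SE 0.15, adjusted p = 0.0763), KLF13 (-0.11), KLF4 (-0.04), KLF7 (0.02) or KLF8 (0.05).

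Summed by class, the length-scaled levels of the activators followed KLF5. They summed to 134.6 and 117.6 FPKM in the control, 90.01 and 91.24 in Cl1, and 111.3 and 111.7 in Cl10. The SIN3-binding members summed to 39.7 and 31.5 in the control, 44.1 and 44.5 in Cl1, and 43.4 and 44.3 in Cl10. KLF10 gained more FPKM than KLF9, a minor part of this sum, lost. Other SIN3-binding KLF genes lie outside this sum, so it does not give the level of the whole class. Among them, KLF16 had means of 27.5, 24 and 29.8 in control, Cl1 and Cl10, and KLF11 had 3.36, 2.92 and 3.83. The CtBP-binding members, almost entirely KLF3, summed to between 8.45 and 10.8 in all libraries. The activator sums of the 3 groups did not overlap, whereas the CtBP sums did.

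Of the 8 other KLF genes in the table, 6 had enough counts to test. KLF12 and KLF15 fell in both clones and KLF1 rose in Cl10. KLF12, a CtBP-binding repressor, had 516.0 and 476.3 normalised counts in the control, 269.8 and 290.5 in Cl1, and 356.6 and 354.1 in Cl10. The change on the log2 scale was -0.83 in Cl1 (edgeR's quasi-likelihood test, adjusted p = 0.00152) and -0.48 in Cl10 (adjusted p = 0.0134), and the Cl10 call was lost without Cl10 replicate 1 or 2 (-0.48 and -0.47, adjusted p = 0.0851 and 0.0915). KLF15, a glucocorticoid-induced factor of metabolic tissues, was scarce at 37 and 38 raw counts in the control, 20 and 11 in Cl1, and 12 and 8 in Cl10. Its log2 fold changes were -1.23 in Cl1 (adjusted p = 0.0371) and -1.72 in Cl10 (adjusted p = 0.0102). The Cl1 call of KLF15 was lost without Cl1 replicate 1, Cl1 replicate 2 or control replicate 2 (-1.47, -1.06 and -1.03, adjusted p = 0.089, 0.176 and 0.15) and in DESeq2 (-1.25, adjusted p = 0.158). KLF1, the erythroid factor, had 12 and 11 raw counts in the control, 26 and 16 in Cl1, and 49 and 46 in Cl10, with log2 fold changes of 0.91 in Cl1 (adjusted p = 0.157) and 2.23 in Cl10 (adjusted p = 0.00208).

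KLF11, KLF14 and KLF16 did not pass against the control. KLF11 and KLF16 were higher in Cl10 than in Cl1, with log2 fold changes of 0.39 (edgeR's quasi-likelihood test, adjusted p = 0.00218) and 0.31 (adjusted p = 0.00524), as were KLF12 (0.35, adjusted p = 0.0315) and KLF1 (1.32, adjusted p = 0.0047). That call of KLF12 was lost without Cl1 replicate 1 (0.29, adjusted p = 0.0851), without either Cl10 library (0.35 and 0.36, adjusted p = 0.133 and 0.111), in DESeq2 (0.36, adjusted p = 0.125) and with the neighbours' median subtracted (0.28, adjusted p = 0.0814). KLF17 and KLF18 had at most 2 counts and 1 count in a library. The transcripts KLF3-AS1 and KLF7-IT1, named after their neighbours, did not pass in any comparison.

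The SP factors bind the same GC boxes as the KLFs. Of 9 SP genes tested, 1 rose and 3 fell in Cl1 (44.4%, beside 25.1% of all genes), and 4 rose and 3 fell in Cl10 (77.8%, beside 42.5%). SP6, a factor of ectodermal organs, rose in both clones, from 1017 and 971.9 normalised counts in the control to 2767 and 2827 in Cl1 and 2228 and 2230.1 in Cl10, with log2 fold changes of 1.49 (edgeR's quasi-likelihood test, adjusted p = 1.73e-06) and 1.17 (adjusted p = 0.000122). SP8 fell to 14.7 and 12 normalised counts in Cl10 from 405.2 and 334.4 in the control (log2 fold change -4.76, adjusted p = 4.43e-05), beside a median of -0.96 over its 50 nearest tested genes, and was -3.81 with that median subtracted. In Cl1 SP8 had 292.0 and 207.3 (-0.56, adjusted p = 0.0446), a call lost in 4 of 12 other settings, namely without Cl1 replicate 2 (-0.34, adjusted p = 0.346), without control replicate 1 (-0.41, adjusted p = 0.0757), in DESeq2 (-0.56, adjusted p = 0.0716) and with the neighbours' median subtracted (-0.51, adjusted p = 0.0682). The others that fell in Cl10 were SP1 (-0.42, adjusted p = 0.0261) and SP4 (-0.44, adjusted p = 0.0357). The medians of their 50 nearest tested genes were lower still, at -0.51 and -1.03. Beside the 4 SP genes that rose in Cl10 these medians lay between -0.02 and 0.03. SP9 rose in Cl10 (1.58, adjusted p = 0.000198) and had 0.14 in Cl1 (adjusted p = 0.626). SP7 had at most 49 raw counts and fell in Cl1 (-1.23, adjusted p = 0.0361), a call lost without control replicate 1 and without either Cl1 library (-0.98, -1.35 and -1.14, adjusted p = 0.183, 0.114 and 0.142) and in DESeq2 (-1.24, adjusted p = 0.165).

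**Figure D4:**
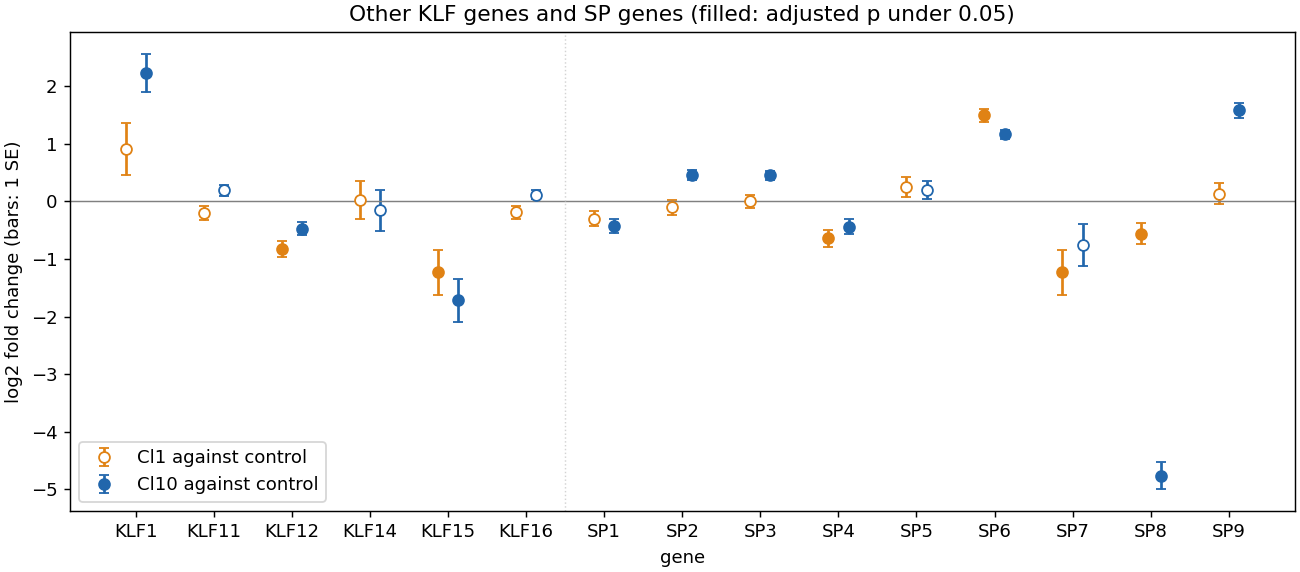
Log2 fold changes with bars of 1 SE for the 6 other KLF genes and the 9 SP genes with enough counts, in Cl1 and Cl10 against control; filled points passed an adjusted p of 0.05. SP6 is filled above 0 and KLF12 and KLF15 are filled below 0 in both clones, and SP8 in Cl10 is the lowest point at -4.76.

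Genes around the KLFs were read from lists. Of 14 corepressors and coactivators that bind KLFs, 1 rose and 0 fell in Cl1 (7.14% passed, beside 25.1% of all genes), and 4 rose and 1 fell in Cl10 (35.7%, beside 42.5%). Of 11 genes for the turnover of KLF proteins, 1 rose in Cl1 (9.09%, beside 25.1%), and 2 rose and 3 fell in Cl10 (45.5%, beside 42.5%). Their medians were close to those of all genes, at 0.08 and 0.05 for the cofactors and -0.04 and 0.04 for turnover. Of 13 genes upstream of KLF genes, 2 rose and 2 fell in Cl1 (30.8%, beside 25.1%), and 6 rose and 2 fell in Cl10 (61.5%, beside 42.5%). Among these, MEF2C, a factor through which ERK5 acts on KLF2, fell from 428.9 and 389.2 normalised counts in the control to 72.6 and 76.1 in Cl1 and 4.9 and 1.2 in Cl10 (log2 fold changes -2.46 and -6.93, edgeR's quasi-likelihood test, adjusted p = 1.73e-06 and 4.04e-05). The Cl10 value was fitted from 5 raw counts and 1 raw count, and was -8.26 without Cl10 replicate 1 and -6.34 without Cl10 replicate 2. MEF2C was at 0.605 FPKM in the control, beside 3.11 for MEF2A and 7.27 for MEF2D, which did not pass in either clone. MAPK7, the gene of ERK5, rose in both clones (0.53 and 0.73, adjusted p = 0.00619 and 0.00107). MAP2K5 fell in both (-0.78 and -0.34, adjusted p = 0.000693 and 0.0397). TGFBR2, a receptor of the ligand that induces KLF10, rose from 3099 and 2785 to 3999 and 3811 in Cl1 (0.41, adjusted p = 0.0172) and to 7567 and 7824 in Cl10 (1.39, adjusted p = 9.96e-05). The Cl1 call of TGFBR2 was lost without Cl1 replicate 1 (0.38, adjusted p = 0.191) and without Cl1 replicate 2 (0.45, adjusted p = 0.101).

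Most squamous differentiation genes linked to KLF4 rose. In Cl1, 13 of 15 tested rose and 1 fell (93.3% passed, beside 25.1% of all genes), with a median of 0.90 on the log2 scale. In Cl10, 9 of 16 rose and 2 fell (68.8% passed, beside 42.5%), with a median of 0.82. The paper had already named KRT1, IVL, FLG and KRT4 as increased in these libraries. The list was chosen with such results known, so these shares are not independent support. IVL, FLG and the SPRR genes of the list lie near each other on chromosome 1. Medians over the 50 nearest tested genes in Cl1 and Cl10 were 0.49 and 0.56 at IVL, and 0.57 and 0.36 at FLG. KLF4 itself did not pass in either clone. KRT1, a suprabasal keratin, had 18.6 and 26.9 normalised counts in the control, 220.3 and 270.6 in Cl1, and 834.1 and 696.3 in Cl10 (log2 fold changes 3.44 and 5.10, edgeR's quasi-likelihood test, adjusted p = 2.26e-06 and 2.43e-05). IVL, a protein of the cornified envelope, had 21.1 and 31.2 in the control, 344.9 and 406.4 in Cl1, and 590.5 and 625.7 in Cl10 (3.86 and 4.56, adjusted p = 3.74e-07 and 2.85e-05). All 4 clone libraries were above the control for both genes. KRT4 and FLG rose in both clones as well, KRT4 by 2.39 and 2.76 (adjusted p = 0.00126 and 0.00128) and FLG by 1.39 and 1.99 (adjusted p = 0.00842 and 0.00215). The Cl1 call of FLG was lost when the median of its 50 nearest tested genes was subtracted (0.82, adjusted p = 0.0927). SPRR2D rose in Cl10 (1.996, adjusted p = 0.00826) and had 0.02 in Cl1 (adjusted p = 0.984). The gene that fell in Cl1 was KRT10 (-0.36, adjusted p = 0.0392). Those that fell in Cl10 were TGM1 and CDKN1A (-0.83 and -0.41, adjusted p = 0.00589 and 0.00661). Both had risen in Cl1 (0.60 and 0.35, adjusted p = 0.00917 and 0.0478). CDH1, counted in this list as a gene that rose in both clones, is also among the basal squamous markers above.

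Proliferation and basal genes linked to KLF5 moved in both directions. Of 12 tested, 5 rose and 1 fell in Cl1 (50%, beside 25.1% of all genes), and 3 rose and 3 fell in Cl10 (50%, beside 42.5%), with medians of 0.31 and 0.04. FGFBP1, a secreted carrier of fibroblast growth factors, fell from 17026 and 21492 normalised counts in the control to 11853 and 13203 in Cl1 and 8465 and 7930 in Cl10 (log2 fold changes -0.62 and -1.23, edgeR's quasi-likelihood test, adjusted p = 0.00685 and 0.000424). The Cl1 call of FGFBP1 was lost without Cl1 replicate 1 (-0.54, adjusted p = 0.113), and its 50 nearest tested genes had a median of -0.90 in Cl10. With that median subtracted, FGFBP1 in Cl10 was -0.33 and no longer past the threshold (adjusted p = 0.0709, and at most that in the other settings). PDGFA, a growth factor gene, fell in Cl10 (-1.76, adjusted p = 8.1e-05), beside a median of -0.77 over its neighbours (-0.99 with it subtracted, adjusted p = 0.000675), and had -0.32 in Cl1 (adjusted p = 0.0724).

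Several KLF genes belong to the early response to serum, and of 15 immediate-early genes tested, 4 rose and 2 fell in Cl1 (40%, beside 25.1% of all genes), and 6 rose and 3 fell in Cl10 (60%, beside 42.5%), with medians of 0.31 in each. FOS rose from 151.4 and 172.0 normalised counts to 1140 and 896.0 in Cl1 and 371.4 and 341.0 in Cl10 (log2 fold changes 2.66 and 1.15, edgeR's quasi-likelihood test, adjusted p = 4.63e-07 and 0.000992). FOSB rose in both (1.36 and 0.81, adjusted p = 0.000539 and 0.0232), a call lost in Cl10 without Cl10 replicate 2 (0.64, adjusted p = 0.1). EGR1, which encodes a zinc finger factor of the same GC-rich sites, and EGR3 rose in Cl1 (1.38 and 2.58, adjusted p = 7.67e-06 and 0.00243) and had -0.06 and 1.54 in Cl10 (adjusted p = 0.755 and 0.0574). The EGR3 value in Cl1 was 3.24 without control replicate 1. CTGF rose in Cl10 (1.49, adjusted p = 0.00179) and had 0.32 in Cl1 (adjusted p = 0.422). FOS and EGR1 were highest in the Cl1 libraries. The genes that fell were IER3 in both clones (-0.61 and -0.75, adjusted p = 0.0048 and 0.000501), and others in 1 clone each. FOSL1 fell in Cl1 (-0.62, adjusted p = 0.00371) and rose in Cl10 (0.31, adjusted p = 0.015). NR4A1 and IER2 fell in Cl10 (-1.12 and -0.35, adjusted p = 0.000933 and 0.0405).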

How the data were processed

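RNA was sequenced from 6 libraries of A253 cells, 2 each of control, Cl1 and Cl10. Per the study's methods the authors used HISAT2 (hg38) for alignment of paired-end reads and HTSeq for counting, and the deposited values are raw counts per gene without normalization. Tool versions, annotation and strand setting are not given in the sources used here. Positions come from GENCODE v44 (hg38), which held 58207 of the 58735 identifiers. Counts were tested with edgeR 4.0.16 in R 4.3.3 (filterByExpr, TMM, glmQLFit and glmQLFTest, two-sided, Benjamini-Hochberg adjustment over all genes tested), each comparison with its own 4 libraries. Both clones share the control libraries. The SE was taken from the F statistic, as the unshrunk log2 change over its square root. The procedure was tested on simulated data. DESeq2 1.42.0 was an alternative. The members, the gene lists and the rule for named genes (all KLF genes, DUSP1, and of each other list at most 5 genes past an adjusted p of 0.05 and an absolute log2 fold change of 1 in either clone) were chosen with earlier results of these data known. Some further genes of the lists were named beyond that rule, mostly to show members that fell or did not pass. The SOX2 experiment was not analysed here.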

Additional observations from a re-analysis of the deposited data

Results flagged for a closer look

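The effects of the 2 clones differed for 4 KLF genes, by the test of Cl10 against Cl1, with edgeR's quasi-likelihood test and adjustment over all genes. KLF9 differed by a log2 fold change of -1.73 (adjusted p = 7.59e-07) and was lower in both Cl10 libraries than in either Cl1 library. KLF5 differed by 0.45 (adjusted p = 4.41e-05), so that its decrease was larger in Cl1. KLF6 differed by 0.31 (adjusted p = 0.00149), and KLF3 by 0.18 (adjusted p = 0.0348). The KLF3 call held in only 6 of 12 other settings, and KLF3 did not pass against the control in either clone. As 49% of all genes passed in this comparison, the number of such KLF genes does not set them apart from other genes.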

How the results depend on the processing

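Each group had 2 libraries, so the error of each value rests on few degrees of freedom, and leaving out a library assumed that the lone library varied like the other group. Without each library in turn, the number of the 10 members past the test ranged from 3 to 6 in Cl1, from 2 to 7 in Cl10 and from 3 to 7 between the clones. In Cl10 it was 2 without either Cl10 library, for KLF9 and KLF10, and 7 without either control library. Between the clones it was 7 without Cl1 replicate 2. In Cl10 the share of all genes past the test also fell without either Cl10 library and rose without either control library. These shifts in Cl10 were thus not particular to KLF genes. Between the clones that share hardly changed without Cl1 replicate 2. Further settings were DESeq2, other scalings and filters, 1 fit over 6 libraries, and the median of the 50 neighbouring genes subtracted. Under these, 4 or 5 members passed in Cl1, 4 to 6 in Cl10 and 3 to 5 between the clones. The shares of all genes were 16.2% to 29.9%, 27.8% to 44.2% and 28.7% to 51.4%. At an adjusted p under 0.01 the number of members was 3 in each, beside 13%, 24.7% and 35.8% of all genes. With a replicate block it was 5, 4 and 4, and the block ended the call of KLF5 in Cl10 (-0.30, adjusted p = 0.0827) and added KLF7 in both clones (0.38 and 0.40, adjusted p = 0.0489 and 0.00539). Same-numbered libraries did not deviate together over all genes, with correlations over 20582 genes of -0.07, -0.02 and 0.01. These correlations cannot show whether such libraries shared a culture or preparation.

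Signs changed for values that had not passed the test, given here on the log2 scale. Leaving out libraries, the range in Cl1 was -0.3361 to 0.5741 for KLF14 and -0.0118 to 0.5499 for KLF13. In Cl10 it was -0.5262 to 0.387 for KLF14, -0.1264 to 0.4377 for KLF13, -0.0811 to 0.1475 for KLF3 and -1.2921 to 0.0648 for KLF8. Between the clones it was -0.3567 to 7e-04 for KLF14, -0.7316 to 0.6186 for KLF8 and -0.0372 to 0.0637 for KLF7. With library size only, KLF14 was -0.0443 in Cl1 and KLF4 was 0.0293 between the clones. With the neighbours' median subtracted, KLF14 was -0.0649 in Cl1, KLF16 was -0.0034 in Cl10 and KLF8 was -0.091 between the clones, where the replicate block gave -0.0129. The cause was not tested. KLF8 had under 10 counts in 1 Cl10 library and gave no value in the comparisons of Cl10 when 10 counts were required in every library.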

Other observations

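KLF9 and KLF15 are textbook glucocorticoid-induced genes, and the values of 4 other such genes, chosen after the KLF results were seen, are given beside them. TSC22D3 had 4437 and 3632 normalised counts in the control, 1451 and 2094 in Cl1, and 1313 and 1329 in Cl10. It fell in both clones (log2 fold changes -1.19 and -1.61, edgeR's quasi-likelihood test, adjusted p = 0.000238 and 0.000128). PER1 had 3682 and 3049 in the control, 1957 and 1834 in Cl1, and 2291 and 2299.5 in Cl10, and also fell in both (-0.83 and -0.55, adjusted p = 0.000396 and 0.00603). FKBP5 fell in Cl1 (-0.45, adjusted p = 0.0106) and had 0.04 in Cl10 (adjusted p = 0.729). ZBTB16 was at 0 counts in all 6 libraries. These genes are not a test of glucocorticoid signalling, which was not measured here.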
